A study of Saccharomyces cerevisiae with 6 samples.

Results

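The genes described here are KAP114 and 8 genes for the proteins that its product carries or that work with that cargo, 9 of the 7125 genes in the deposited table. They were chosen by name: SPT15, which encodes the TATA-binding protein (TBP); SUA7, for the initiation factor TFIIB; TOA1 and TOA2, for the subunits of TFIIA; BUR6 and NCB2, for the subunits of the repressor NC2; MOT1, for an ATPase that removes TBP from DNA; and NAP1, for a histone chaperone. Poly(A)-selected RNA was sequenced from Saccharomyces cerevisiae of the S288C background, in 3 libraries of the wild type and 3 of a strain lacking KAP114. Both strains grew in YPD, a rich medium, with 1.5 M NaCl, so every library comes from high salt and no response to salt was measured. The labels do not state how the deletion was made, its marker, the number of clones, or whether replicate libraries stem from independent cultures. The names of all 6 libraries, in both genotypes, carry the word TAF1; the labels do not explain it, so a strain feature or tag that both groups share cannot be told from them. A p-value here therefore speaks of library-to-library spread, part of which may be technical.

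Kap114 is a karyopherin, an import receptor that binds its cargo in the cytoplasm and passes the nuclear pore. Import receptors in general release cargo on meeting the GTP-bound form of the small GTPase Ran. The cargo of Kap114 includes TBP and histones, and Nap1 travels with the histones. In the nucleus TBP binds the TATA element of promoters, where TFIIA and TFIIB stabilise it on DNA, while NC2 and Mot1 act on the TBP-DNA complex and can block TBP or take it off.

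Library totals ranged from 33638728 to 38540115 counts. Of 6080 genes tested, 3911 differed between the genotypes, so the members are read against a background of 64.3% called. Knockout library 1 lay closer to the wild type than the other knockout libraries in 7 of the 8 other members, and values without it are given where a result depends on it. The ribosomal RNA locus RDN37 took 3.69% to 4.54% of wild-type counts and 9.05% to 12.3% of knockout counts. With the 10 most abundant genes removed, among them both RDN37 entries, the same number of members passed (6 of 8, KAP114 left aside). The scaling of the reported fit already trims genes with extreme levels or changes, so this removal could change little. With scaling by library totals alone, 5 of the 8 passed.

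The start regions of 4 members are shown because these genes carry the findings. They are the deleted gene, the gene for TBP and the TBP partner whose fall held in every setting tried. The last is MOT1, the member that rose in the reported fit, a call that ended in 10 of 17 other settings. Each window runs from 250 bases before to 50 bases after the first base of the coding region, 5′ to 3′ on the strand of the gene, in RefSeq's copy of build R64. Capitals mark matches to the TATA box in its 8 forms (TATAAAAA, TATAAAAG, TATAAATA, TATAAATG, TATATAAA, TATATAAG, TATATATA and TATATATG) or to the stress response element AGGGG, searched on both strands with overlapping matches allowed. The windows are chrVII:45195-45494 (plus strand) for KAP114, chrV:465053-465352 (plus) for SPT15, chrXV:712494-712793 (minus) for TOA1 and chrXVI:404034-404333 (minus) for MOT1.
KAP114: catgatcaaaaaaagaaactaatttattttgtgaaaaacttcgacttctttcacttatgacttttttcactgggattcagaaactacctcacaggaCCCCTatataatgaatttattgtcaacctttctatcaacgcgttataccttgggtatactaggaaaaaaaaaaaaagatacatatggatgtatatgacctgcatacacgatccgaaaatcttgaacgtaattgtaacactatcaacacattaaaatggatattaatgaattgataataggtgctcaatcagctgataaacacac
SPT15: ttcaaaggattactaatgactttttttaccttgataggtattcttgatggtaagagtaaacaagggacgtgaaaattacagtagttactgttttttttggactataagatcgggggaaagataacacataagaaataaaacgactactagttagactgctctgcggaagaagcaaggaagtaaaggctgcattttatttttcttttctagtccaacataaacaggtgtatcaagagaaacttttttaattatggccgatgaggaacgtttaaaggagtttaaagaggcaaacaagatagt
TOA1: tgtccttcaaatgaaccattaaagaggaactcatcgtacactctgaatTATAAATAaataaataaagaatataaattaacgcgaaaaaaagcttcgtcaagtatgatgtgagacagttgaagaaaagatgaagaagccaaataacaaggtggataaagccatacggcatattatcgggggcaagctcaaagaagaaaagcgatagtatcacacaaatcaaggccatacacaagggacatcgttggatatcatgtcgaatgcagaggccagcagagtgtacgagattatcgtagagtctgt
MOT1: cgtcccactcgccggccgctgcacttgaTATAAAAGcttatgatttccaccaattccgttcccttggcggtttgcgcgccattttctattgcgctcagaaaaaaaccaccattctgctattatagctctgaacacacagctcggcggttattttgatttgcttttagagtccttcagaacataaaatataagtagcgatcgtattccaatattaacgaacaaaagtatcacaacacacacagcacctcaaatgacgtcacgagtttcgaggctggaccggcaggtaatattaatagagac

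A TATA box in one of these forms lay in the windows of 4 of the 9 members, MOT1, TOA1, NAP1 and NCB2, against 37.7% of 6001 windows of protein-coding genes. In MOT1 it began 222 bases and in TOA1 202 bases before the coding region. NCB2 held a pair of overlapping matches on its own strand, beginning 141 and 139 bases before, and the match in NAP1 lay on the opposite strand. The windows of KAP114, SPT15, SUA7, BUR6 and TOA2 held none of the 8 forms. The stress response element, the site of the stress factors Msn2 and Msn4, lay in the windows of KAP114, BUR6, SUA7 and TOA2, and 21.6% of all windows held it. Of the members with a TATA box match, MOT1 rose in the reported fit, TOA1 and NAP1 fell, and NCB2 did not pass the test. Whether a match goes with a change was not tested.

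KAP114 (YGL241W, chromosome VII, 45445 to 48459, build R64, plus strand) had 257, 336 and 312 counts in wild-type libraries 1 to 3, and 0 counts in each knockout library. These counts equal 2.30, 2.78 and 2.88 TPM, a level scaled for gene length and library, which makes KAP114 the member with the lowest level. Of all 6080 tested genes, 6.23% had a lower mean TPM in the wild type. With 3 counts over the knockout group as the floor, 0.0289 CPM (library-scaled counts), KAP114 was at least 279-fold lower in the knockout. KAP114 was also the only gene of the table with 0 counts in every library of one genotype and at least 10 in every library of the other.

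The intergenic stretch in front of KAP114, printed whole in its window, is 247 bases long and also lies in front of YGL242C, which runs the other way. YGL242C had 11.1, 12.4 and 10.1 CPM in the wild type and 16.7, 29.0 and 25.5 CPM in the knockout. The groups did not overlap, and the gene rose by 1.08 ± 0.21 (log2, SE; edgeR adjusted p = 0.00413). DOC1, 153 bases beyond the other end of KAP114 and coding for part of the anaphase-promoting complex, ranged from 15.3 to 16.5 CPM in the wild type and from 12.6 to 16.2 CPM in the knockout, with overlapping groups.

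**Figure D1:**
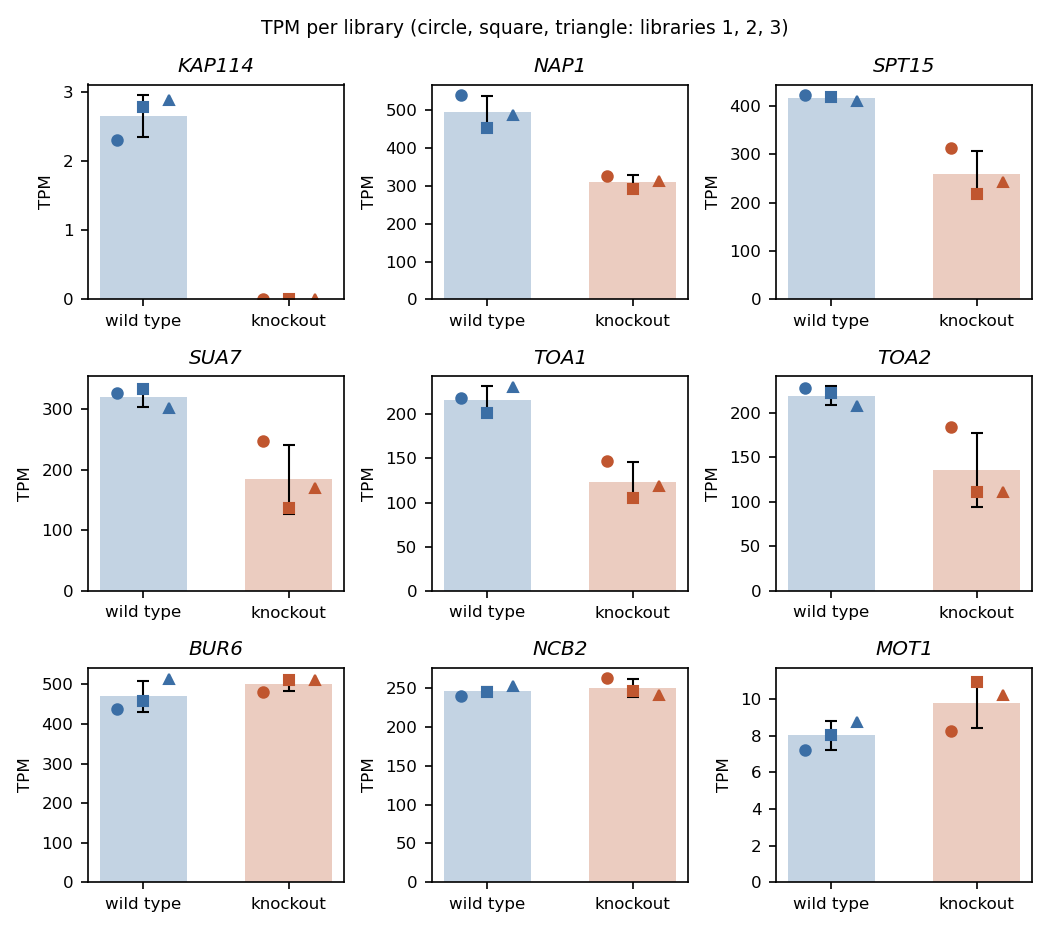
TPM of the 9 members in the 6 libraries (points), with the mean (bar) and SD (error bar, n = 3) of each genotype; each panel has its own axis from 0. KAP114 is at 0 in the knockout, NAP1, SPT15, SUA7, TOA1 and TOA2 lie below every wild-type library there, and BUR6, NCB2 and MOT1 overlap with the wild type.

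In the knockout 5 of the 8 other members fell, namely the genes for TBP, TFIIB, both TFIIA subunits and Nap1, and MOT1 rose in the reported fit; BUR6 and NCB2 did not pass. In the reported fit the falls were of similar size, from 1.52-fold for NAP1 to 1.67-fold for TOA1. Without knockout library 1 they lay further apart, from -0.63 for NAP1 to -0.98 for SUA7 on the log2 scale. Over all tested genes 30.0% fell and 34.3% rose, and the median absolute log2 change was 0.58, so changes of this size were common: 47.5% of tested genes changed by more than SPT15 did. The CPM groups did not overlap for 6 of the 8 members, against 73.8% of tested genes. The members were chosen with earlier results of these data known, so nothing about the list as a whole is read from these shares. In bulk RNA, fewer cells that express a gene and less of its RNA per cell cannot be told apart.

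SPT15 (YER148W, chromosome V, 465303 to 466025, plus strand), the gene for TBP, had 423, 418 and 411 TPM in the wild type and 313, 219 and 243 TPM in the knockout. Every knockout library was below every wild-type library, and knockout library 1 was the highest of its group. The mean went from 305 ± 11.2 to 198 ± 36.0 CPM (SD, n = 3 each), a 1.54-fold fall and a log2 change of -0.62 ± 0.16 (SE, edgeR adjusted p = 0.0111). The spread grew too, with a coefficient of variation of 3.68% in the wild type and 18.2% in the knockout, though the difference in spread was not tested. Leaving out knockout library 3 moved the adjusted p to 0.0520, and leaving out knockout library 1 moved the change to -0.77. Before and after SPT15 lie SCC4, for a cohesin loader subunit, which shares the region in front of SPT15 and fell by 1.21 on the log2 scale, and YER148W-A, at under 1 CPM on average.

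SUA7 (YPR086W, chromosome XVI, 710101 to 711138, plus strand) encodes TFIIB, which bridges TBP and RNA polymerase II. It had 327, 334 and 302 TPM in the wild type and 248, 137 and 170 TPM in the knockout. The groups did not overlap, but the knockout libraries were far apart, with a coefficient of variation of 30.0% in CPM against 6.51% in the wild type. SUA7 went from 337 ± 21.9 to 204 ± 61.1 CPM (SD, n = 3 each), a 1.66-fold fall (log2 change -0.73 ± 0.22, SE, edgeR adjusted p = 0.0214). It lost its call when wild-type library 1 or 2 or knockout library 3 was left out (adjusted p from 0.0624 to 0.0777), and without knockout library 1 the change was -0.98.

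TOA1 (YOR194C, chromosome XV, 711683 to 712543, minus strand) and TOA2 (YKL058W, chromosome XI, 330166 to 330534, plus strand) encode the large and the small subunit of TFIIA, which clasps TBP on the TATA box. TOA1 had 218, 201 and 231 TPM in the wild type and 148, 105 and 118 TPM in the knockout. TOA2 had 228, 222 and 208 TPM in the wild type and 184, 112 and 112 TPM in the knockout. Neither gene's groups overlapped, and in both knockout library 1 was the highest of its group. TOA1 went from 189 ± 14.1 to 113 ± 19.1 CPM (SD, n = 3 each), a 1.67-fold fall with a log2 change of -0.74 ± 0.15 (SE, edgeR adjusted p = 0.00456). It was the member with the smallest adjusted p after KAP114, and its call held in all 17 other settings tried, with an adjusted p of at most 0.0245. TOA2 went from 82.0 ± 5.52 to 53.1 ± 15.9 CPM (SD, n = 3 each), a 1.54-fold fall with a log2 change of -0.63 ± 0.20 (SE, edgeR adjusted p = 0.0263). Leaving out any single library apart from knockout library 1 ended its call (adjusted p from 0.0547 to 0.0904), and without knockout library 1 the change was -0.89.

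NAP1 (YKR048C, chromosome XI, 525387 to 526640, minus strand), for the chaperone that binds histones on their way to chromatin, had 540, 453 and 488 TPM in the wild type and 326, 292 and 311 TPM in the knockout. The groups did not overlap, and NAP1 was the one falling member with a smaller spread in the knockout (4.93% of the mean in CPM) than in the wild type (11.3%). It went from 627 ± 70.8 to 413 ± 20.3 CPM (SD, n = 3 each), a 1.52-fold fall (log2 change -0.60 ± 0.15, SE, edgeR adjusted p = 0.0116). The call ended without wild-type library 1 or knockout library 3, at adjusted p of 0.0566 and 0.0523. Its nearest genes on the same strand, PET10 and FMP46, fell as well, by 1.18 and 1.39 on the log2 scale.

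**Figure D2:**
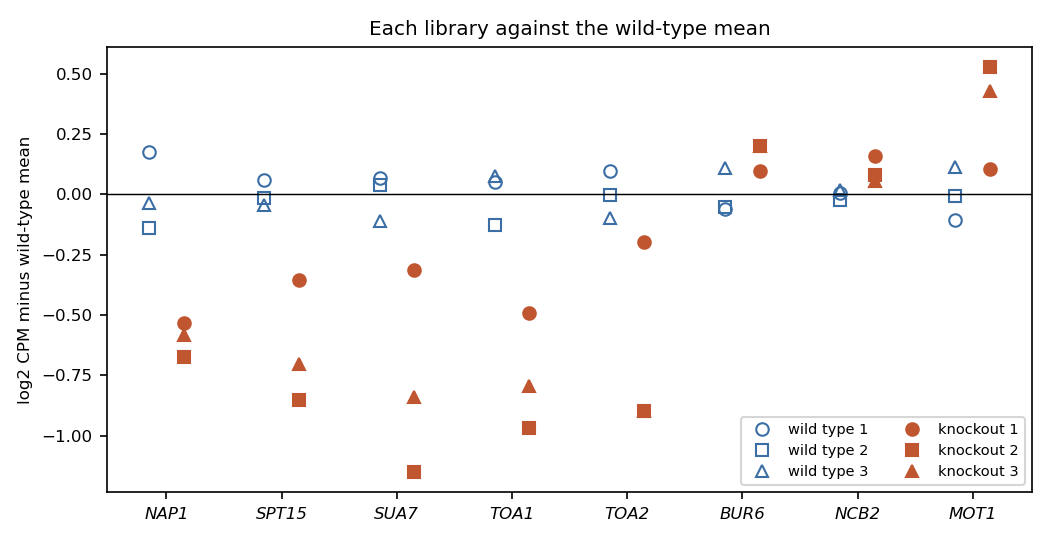
Log2 CPM of 8 members in each library minus the gene's wild-type mean; open symbols are wild-type and filled symbols knockout libraries 1 to 3. For SPT15, SUA7, TOA1, TOA2 and MOT1, knockout library 1 lies nearest to the wild type (-0.36, -0.31, -0.49, -0.20 and 0.10), while for NAP1 the 3 knockout libraries lie between -0.67 and -0.53.

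Among the factors that act against TBP on DNA, no gene fell. MOT1 (YPL082C, chromosome XVI, 398480 to 404083, minus strand) had 7.23, 8.07 and 8.77 TPM in the wild type and 8.25, 10.9 and 10.2 TPM in the knockout. Knockout library 1 lay inside the wild-type range, so the groups overlapped, also in CPM (42.2, 45.1 and 49.0 against 48.7, 65.3 and 61.0). MOT1 rose 1.28-fold, a log2 change of 0.36 ± 0.13 (SE, edgeR adjusted p = 0.0427). The call ended in 10 of 17 other settings: with RLE scaling, scaling by library totals, DESeq2, limma on either log2 TPM scale, and without each library other than knockout library 1 (adjusted p from 0.0602 to 0.203). The change stayed positive in all of them, from 0.22 with library totals to 0.48 without knockout library 1. Scaling by library totals alone shifted the median log2 change of all tested genes from 0.01 to -0.13. RPS9A, the gene on the other side of the region in front of MOT1, 866 bases away, encodes a ribosomal protein and rose 4.90-fold; it has a near-identical copy, so its counts are uncertain.

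BUR6 (YER159C, chromosome V, 491530 to 491958, minus strand) and NCB2 (YDR397C, chromosome IV, 1266366 to 1266898, minus strand) encode the NC2 subunits, which pair through histone folds and cover TBP on DNA. BUR6 had 437, 459 and 513 TPM in the wild type and 482, 510 and 510 TPM in the knockout, with overlapping groups. NCB2, the one member with an intron (92 bases), had 239, 245 and 252 TPM in the wild type and 263, 246 and 241 TPM in the knockout, also with overlap. Neither passed edgeR's test, at adjusted p of 0.243 and 0.370. The log2 changes were 0.16 for BUR6 (95% interval -0.11 to 0.43) and 0.10 for NCB2 (-0.12 to 0.31), so a fall as large as the 0.62 of SPT15 lies outside both intervals. With scaling by library totals NCB2 changed sign, to -0.05. For NCB2 the CPM groups did not overlap, although the deposited TPM values did.

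**Figure D3:**
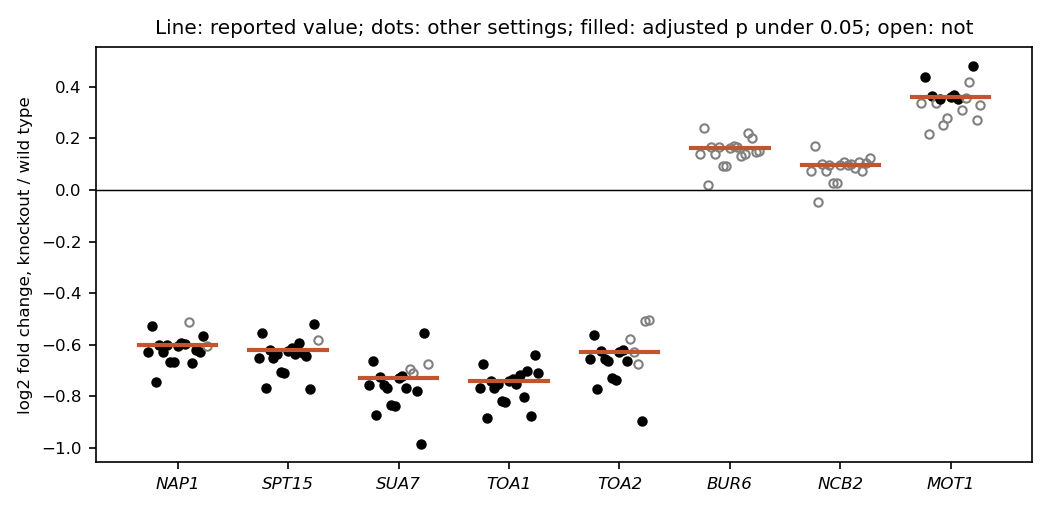
Log2 fold change (knockout over wild type) of 8 members in the reported fit (line) and in 17 other settings (dots, filled where the adjusted p is under 0.05). TOA1 passes in every setting shown, MOT1 stays between 0.22 and 0.48 but passes in 7 of the 17, and BUR6 and NCB2 pass in none.

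Levels of different genes can be set side by side in TPM. In the wild type NAP1 and BUR6 were highest (means of 493 and 470 TPM, with overlapping ranges), followed by SPT15 (417), SUA7 (321) and NCB2 (245). TOA2 (220) and TOA1 (217) overlapped, and MOT1 (8.02) and KAP114 (2.65) were far below. By mean TPM, SPT15 exceeded 93.4% of tested genes and MOT1 16.4%. In the knockout BUR6 alone was highest, at 501 TPM, with no overlap with the next gene, NAP1 (310). From NAP1 down through SPT15 (258), NCB2 (250), SUA7 (185), TOA2 (136) and TOA1 (124), each gene overlapped with the next. SPT15 and NCB2, which did not overlap in the wild type, thus had overlapping levels in the knockout.

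Ratios within a library do not depend on how libraries are scaled to each other. The TPM ratio of SPT15 to MOT1 was 58.4, 51.9 and 46.8 in the wild type and 38.0, 20.0 and 23.8 in the knockout. The groups did not overlap, and the geometric mean went from 52.2 to 26.3, a 1.99-fold difference. A two-sided exact permutation test gave p = 0.1, the smallest value that 3 libraries against 3 allow, and 0.4 adjusted over the 4 ratios compared. This test therefore cannot reach a p of 0.05 for any of the ratios.

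The other ratios had overlapping groups. SPT15 to SUA7 was 1.29, 1.25 and 1.36 in the wild type and 1.26, 1.60 and 1.43 in the knockout (exact permutation p = 0.3). BUR6 to NCB2 was 1.83, 1.87 and 2.04 against 1.83, 2.07 and 2.11 (p = 0.4, exact permutation). TOA1 to TOA2 was 0.956, 0.904 and 1.11 against 0.803, 0.941 and 1.06 (p = 0.5, exact permutation). On the log2 scale the TFIIA ratio was -0.02 ± 0.15 in the wild type and -0.11 ± 0.20 in the knockout (SD, n = 3 each), while both of its genes fell. The NC2 ratio differed between genotypes by 0.07 on this scale, less than its wild-type SD of 0.08.

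**Figure D4:**
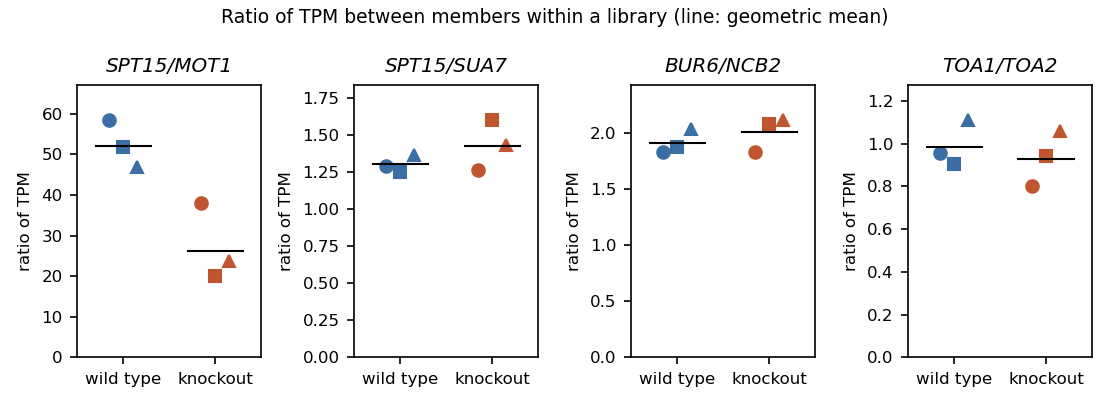
Ratio of TPM between 2 members in each library (points for libraries 1 to 3, line for the geometric mean, axes from 0). SPT15 to MOT1 is lower in every knockout library (20.0 to 38.0) than in every wild-type library (46.8 to 58.4), and the groups overlap for the other ratios.

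Patterns over the 6 libraries were compared by the root mean square difference in log2 CPM after subtracting each gene's wild-type mean, over 5187 other genes with a mean of at least 10 CPM. The genes most like SPT15 were UBC8, SDH4, UBS1, FMP10 and OAF1, at differences of 0.01 to 0.03. Of the other members TOA1 came 271st, TOA2 295th, NAP1 455th and SUA7 497th of 5187 in likeness to SPT15. The genes most like MOT1 were TMT1, CBF2, JEM1, SEN15 and NUT1, at 0.04 to 0.05, and BUR6 came 494th. These distances describe 6 libraries that share their genotype contrast, and many genes lie close together.

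The nearest genes on either side of the 9 members did not move in 1 direction. Of 18, 16 were tested, 5 of which rose, 7 fell and 4 did not pass. Among all tested genes 34.3% rose and 30.0% fell, so a mix of directions is common. TOA2 lies between MPE1, which fell by 0.90, and NUP120, which rose by 1.66 on the log2 scale. NCB2 lies between SXM1 and UTP5, which rose by 0.64 and 0.73 while NCB2 did not pass. Overlapping features on the opposite strand of SPT15, NAP1, BUR6 and NCB2 had from 0 to 16 counts in any library, where these members had at least 3844.

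Of 16 genes for TFIIE, TFIIF, TFIIH and associated subunits, 9 fell and 0 rose (1 rose with upper-quartile scaling), against 30.0% lower and 34.3% higher among all tested genes. The list's median log2 change was -0.72, against 0.01 over all tested genes, and 56.2% of it was called, against 64.3%. SSL1, TFB2 and TFB3, for subunits of TFIIH, fell 2.14-fold, 1.83-fold and 1.71-fold, and TFG2, for a subunit of TFIIF, fell 1.72-fold. TFA1, RAD3, TFB4, TFB5, KIN28, TAF14 and CCL1 did not pass; CCL1, the cyclin of the TFIIH kinase, had a log2 change of -0.90 ± 0.34 (SE, edgeR adjusted p = 0.0514). Without knockout library 1 the list had 10 falls and 1 rise, and it had 7 falls when wild-type library 1, wild-type library 3 or knockout library 3 was left out. Of 5 TFIID and SAGA subunits that contact TBP, TAF1 (the gene, whose name also stands in the library names of both genotypes), TAF13, SPT3 and SPT8 fell, by 0.95, 0.44, 0.31 and 0.92 on the log2 scale, and TAF11 rose by 0.56; without wild-type library 3 or knockout library 3, 2 of the 4 falls passed.

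Of 10 genes for polymerase I and III factors that work with TBP, none passed in edgeR's test, against 64.3% of all tested genes. Of the 10, 2 had an unadjusted p under 0.05. DESeq2 called 3, all lower, as did limma on either log2 TPM scale, and limma-voom called 0. RLE scaling called 1 lower and upper-quartile scaling 1 higher. With 10 CPM in 3 libraries as the filter, 8 were tested and 1 was called higher. BRF1 and BDP1, for subunits of TFIIIB, had log2 changes of -0.18 ± 0.08 and -0.23 ± 0.11 (SE), and RRN3 and RRN9, for factors of polymerase I, of -0.24 ± 0.10 and 0.25 ± 0.10. All 10 lay between -0.24 and 0.25, with a median of -0.06, which was 0.02 with upper-quartile scaling. With library totals 3 were called lower, and without knockout library 1 2 were called lower and 1 higher.

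Genes for histone cargo and for cargo release did not share a direction. Of 12 tested, from a list of 13 names, 6 rose and 1 fell, with a median log2 change of 0.39. The name PRP20 was not found among the table's names, so nothing is said here of that gene. Of the list 58.3% was called, against 64.3% of all tested genes, among which 34.3% rose and 30.0% fell. HTA2 and HTB2, for core histones, rose 3.49-fold and 2.62-fold, whereas HTA1 and HTB1 had log2 changes of -0.03 ± 0.14 and -0.09 ± 0.15 (SE). HTA1 is a near-identical copy of HTA2, and HTB1 of HTB2, so the split of reads within each pair is uncertain. GSP1, for Ran, rose 3.79-fold and NTF2, which carries Ran into the nucleus, 3.58-fold. RNA1 and YRB1, also on the list, rose 1.97-fold and 1.61-fold. SMT3, for SUMO, and ULP1, for a SUMO protease, did not pass, at log2 changes of 0.03 and 0.10. The fall was that of GSP2, and that call ended in each fit without 1 library other than knockout library 1. GSP2 is a near-identical copy of GSP1, so the split of reads between these genes is uncertain too.

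**Figure D5:**
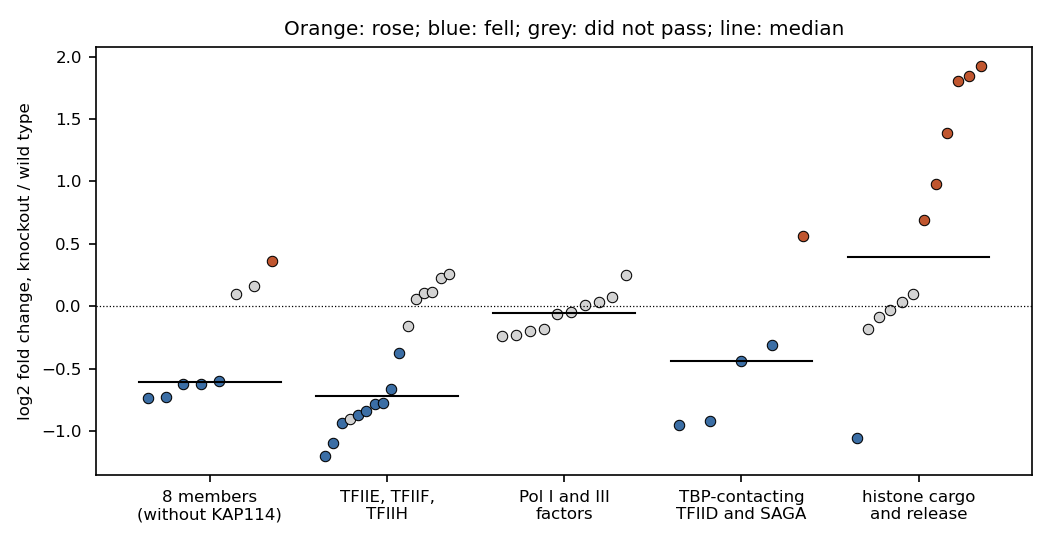
Log2 fold change (knockout over wild type) of 8 members and of the tested genes on 4 related lists, each dot a gene, with the list's median as a line. Of 16 other initiation factors 9 fell, of 10 polymerase I and III factors none passed, and of 12 histone cargo and release genes 6 rose. Among all tested genes 34.3% rose and 30.0% fell.

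The authors' deposited table of the comparison lists the same directions, with log2 fold changes of -0.62 for SPT15, -0.74 for TOA1, 0.36 for MOT1 and 0.10 for NCB2. The authors' deposited table gives MOT1 a false discovery rate of 0.0443. A later deposited sheet lists 2212 selected genes, none with a fold change under 1.50 in the authors' deposited table. It holds SPT15, NAP1, SUA7, TOA1 and TOA2 but not KAP114, MOT1, BUR6 or NCB2. Every gene on the sheet reached at least 11.0 TPM in some library. KAP114 reached at most 2.88 TPM and MOT1 at most 10.9 TPM. The deposited fold changes of MOT1, BUR6 and NCB2 were 1.28, 1.12 and 1.07, under the smallest on the sheet (1.50).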

How the data were processed

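Per the file headers, the authors deposited raw read counts for every gene and library, with RPKM and TPM beside them. Their deposited comparison gives a fold change as a signed score, its log2 and a false discovery rate. The submitters' processing notes name FastQC and build R64; no aligner, counter or test is given in the sources used here. For NCB2 the deposited RPKM rests on 441 bases, its length without the intron. Of the table's names 6190 matched RefSeq's annotation of R64, 6174 of them with the same start and end, all 9 members included.

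Genes were kept with filterByExpr (minimum count 10, minimum total 15) and tested across all 6080 with edgeR 4.0.16 (R 4.3.3; quasi-likelihood, robust, TMM), adjusted after Benjamini-Hochberg at a threshold of 0.05. CPM values carry TMM factors. SEs come from the F statistic and 95% intervals from the t distribution with the fit's degrees of freedom. The test was checked on simulated data. The members, lists and alternatives were chosen with earlier results of these data known. Named are the members, their nearest genes, genes at 0 in 1 genotype and the 5 genes most like SPT15 and MOT1. Up to 4 genes with the smallest p per list are named too. CCL1, HTA1, HTB1, SMT3, ULP1, GSP2, RNA1, YRB1, TAF1 and the initiation factors that did not pass were named after their values were seen. Floors cover counting error only. Alternatives tried: scaling by RLE, upper quartile or totals, removal of the 10 most abundant genes, DESeq2 1.42.0, limma 3.58.1 (voom, or log2(TPM + 1) and log2(TPM + 0.1)), other count filters, a replicate block and leaving out each library.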

Additional observations from a re-analysis of the deposited data

How the results depend on the processing

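Of the 8 members other than KAP114, 6 passed in the reported fit, and 5 or 6 in the 11 settings that kept all libraries, MOT1 being the one lost. Leaving out 1 library gave from 1 (without knockout library 3) to 6 members called (without knockout library 1), with 2 and 3 without wild-type libraries 1 and 2, and over all genes from 2819 to 4639 calls. The cause was not tested. NCB2 was reversed with library totals, at -0.0457 (log2). The log2 difference in the ratio of SPT15 to MOT1 ranged from -1.25 to -0.79, of SPT15 to SUA7 from 0.05 to 0.22 and of BUR6 to NCB2 from 0.03 to 0.13 when 1 library was left out. That of TOA1 to TOA2 ranged from -0.18 to 0.02 and was reversed without knockout library 1 (0.0180). Within a library RPKM and TPM differ by a shared factor, so using RPKM could not change a ratio. Libraries with the same replicate number had correlated deviations of 0.402, 0.259 and -0.077, so the numbers were not taken as pairs; these are the numbers in the sample titles, and the library names number the knockout libraries 3, 4 and 5 instead. By the titles' numbers, knockout library 3 correlated best with another number. With the replicate number as a block, 6 members and 3916 genes were called. Blocking could not change the differences in ratio, as each group has 3 libraries (SPT15 to MOT1 at -0.99). With 10 CPM in 3 libraries as the filter KAP114 was not tested. KAP114 rests on 257 to 336 counts per wild-type library, the fewest of the members.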
